A study of Mus musculus with 5 samples.

Results

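The cells described here were ependymal cells of the midbrain aqueduct of adult mice, taken by a threshold on 1 gene. Of the 547 sorted midbrain cells of the Foxj1 line, those with Ccdc153 at or above 1000 CPM (a gene's reads scaled to a fixed total of reads per cell) were members. This gave 317 members, 58.0% of the midbrain cells (95% Clopper-Pearson interval 53.7 to 62.1), of 1473 cells in the whole series. The other 230 midbrain cells of the same sample were the comparison. The members were chosen on measured values, so every difference between them and the other cells is a description, and no test or p-value is given for it.

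The series asked how Sox9 and NFI transcription factors set when dopamine progenitors make neurons and when ependyma matures. The midbrain cells came from 3-month-old mice that carried FoxJ1CreERT2, a Cre recombinase fused to an estrogen receptor domain under Foxj1 control, and the R26TdT reporter, a tdTomato fluorescent protein switched on by Cre. That line comprised 10 animals, 5 females and 5 males, which served 4 regions, and no label tied a cell to an animal. Members and other cells shared genotype, age, dissection and sort. Cells were sorted into 96-well plates, and each was sequenced as its own full-length Smart-seq2 library of polyA RNA without molecular identifiers. As background levels, 114 cells of the spinal cord of the same line were used, and 327 midbrain cells of 3-month-old Nkx2-2Cre R26TrapC mice, a line of 7 females. A Foxj1-driven reporter marks cells in which the promoter is or was active, so the sort could hold cells other than ependymal cells. Each group had 1 sample.

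Ependymal cells form the epithelium that lines the ventricles and the aqueduct, the narrow canal between the third and the fourth ventricle. Most carry a tuft of motile cilia whose beat moves the cerebrospinal fluid, and FOXJ1 and RFX factors switch on the genes for the ciliary axoneme. At the roof of the entrance to the aqueduct lies the subcommissural organ, a patch of modified ependyma that secretes SCO-spondin, the product of Sspo, from which Reissner's fiber is made.

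The promoters of the gene that chose the cells and of the markers Tmem212 and Ifitm1 are shown first, with those of 3 motile cilium genes that were higher in the members. Windows of 300 bases run from 250 bases before to 50 after the start, 5′ to 3′ on the gene's strand, from RefSeq on GRCm38.p6. Capitals mark GTTGCC or its reverse complement GGCAAC, the first letters of the X-box, the motif that RFX factors bind. The windows lie at chr9:44240427-44240726 (plus strand), chr3:27896319-27896618 (minus strand), chr7:140967826-140968125 (plus strand), chr5:124724835-124725134 (plus strand), chr15:31453640-31453939 (minus strand) and chr8:116504765-116505064 (plus strand).
Ccdc153: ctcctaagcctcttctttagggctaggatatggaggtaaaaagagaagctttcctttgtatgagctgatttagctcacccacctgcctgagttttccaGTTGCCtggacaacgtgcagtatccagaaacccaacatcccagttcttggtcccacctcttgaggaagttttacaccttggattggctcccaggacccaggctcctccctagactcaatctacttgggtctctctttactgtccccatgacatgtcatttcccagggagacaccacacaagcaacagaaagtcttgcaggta
Tmem212: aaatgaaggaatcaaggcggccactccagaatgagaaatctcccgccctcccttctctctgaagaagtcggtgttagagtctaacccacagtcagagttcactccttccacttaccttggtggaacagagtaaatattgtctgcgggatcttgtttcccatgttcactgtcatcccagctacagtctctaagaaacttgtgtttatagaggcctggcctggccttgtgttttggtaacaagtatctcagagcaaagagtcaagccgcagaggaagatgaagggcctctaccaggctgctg
Ifitm1: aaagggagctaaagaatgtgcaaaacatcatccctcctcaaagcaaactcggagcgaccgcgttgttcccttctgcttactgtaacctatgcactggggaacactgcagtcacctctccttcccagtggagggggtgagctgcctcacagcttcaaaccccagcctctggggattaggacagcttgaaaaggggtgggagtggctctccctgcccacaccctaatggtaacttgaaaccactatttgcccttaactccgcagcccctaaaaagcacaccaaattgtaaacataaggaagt
Dnah10: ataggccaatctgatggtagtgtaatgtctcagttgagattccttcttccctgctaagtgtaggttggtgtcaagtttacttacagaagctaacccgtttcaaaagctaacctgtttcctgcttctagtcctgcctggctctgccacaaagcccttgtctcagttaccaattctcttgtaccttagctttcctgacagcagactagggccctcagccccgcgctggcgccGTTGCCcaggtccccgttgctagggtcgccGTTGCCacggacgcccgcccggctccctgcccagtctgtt
Ropn1l: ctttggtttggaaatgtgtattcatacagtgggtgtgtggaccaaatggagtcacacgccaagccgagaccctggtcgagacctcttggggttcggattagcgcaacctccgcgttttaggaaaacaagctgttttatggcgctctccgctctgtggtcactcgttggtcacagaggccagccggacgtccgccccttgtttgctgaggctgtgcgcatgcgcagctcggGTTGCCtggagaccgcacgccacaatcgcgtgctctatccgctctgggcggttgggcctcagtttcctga
Dynlrb2: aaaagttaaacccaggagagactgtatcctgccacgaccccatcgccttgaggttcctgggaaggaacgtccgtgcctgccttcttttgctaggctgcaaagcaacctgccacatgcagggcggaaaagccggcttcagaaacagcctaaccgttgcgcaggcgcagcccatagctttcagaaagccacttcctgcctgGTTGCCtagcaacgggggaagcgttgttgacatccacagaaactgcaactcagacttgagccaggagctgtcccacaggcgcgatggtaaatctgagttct
Counted from 1 at the 5′ end, the letters stand at bases 99 to 104 for Ccdc153, at 231 to 236 and 261 to 266 for Dnah10, at 231 to 236 for Ropn1l and at 200 to 205 for Dynlrb2. Dnah10 encodes an axonemal dynein heavy chain, Ropn1l a radial spoke protein and Dynlrb2 a dynein light chain. These 3 were the motile cilium genes with the largest ratio to the other cells among those with 1 start in the table and these letters in it.

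Among motile cilium genes the letters were common. Either strand held GTTGCC in 25 of the 54 motile cilium genes with a promoter in the table (46.3%, 95% interval 32.6 to 60.4) and in 14 of 34 genes of intraflagellar transport and the BBSome (41.2%). The share was 14.1% of 27025 genes in the table and 17.2% of the expressed genes compared below. Among genes at least 4-fold higher in members it was 22.1% (69 of 312), and among genes at least 4-fold lower it was 13.98% (52 of 372). The longer form GTTGCCA, which contains the first, stood in 22.2% of motile cilium genes and in 5.02% of all genes, and in 8.65% of the higher and 2.96% of the lower genes. The forkhead letters GTAAACA or TGTTTAC, of the kind FOXJ1 binds, stood in 1.85% of motile cilium genes (1 of 54, 95% interval 0.047 to 9.89). They stood in 4.05% of all genes and 3.43% of the expressed genes, both within that interval, and in 5.13% of the higher and 3.23% of the lower genes. A match is a run of letters in this window and not a site of binding.

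The choice of cells fixed the split in Ccdc153. Most members had low Sspo and most other cells high Sspo, and a small set of cells had both genes high. In the plot of Ccdc153 against Sspo, 301 members had Sspo under 1000 CPM. The remaining 16 members (5.05%) had Sspo at or above 1000 CPM and went against the label. In them Ccdc153 stood at 1468 CPM, Tmem212 at 479, Rarres2 at 183, Sspo at 11011 and Spdef, a secretory-cell transcription factor, at 1863 CPM. Of the other 230 cells, 196 had high Sspo by the same measure and 34 did not. Most of the comparison below is therefore with Sspo-high cells. The 34 cells had Gfap, the astrocyte filament, at 3823 CPM and Agt, angiotensinogen, at 1579 CPM, and 2 of them had microglia markers above 1000 CPM in sum.

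**Figure D1:**
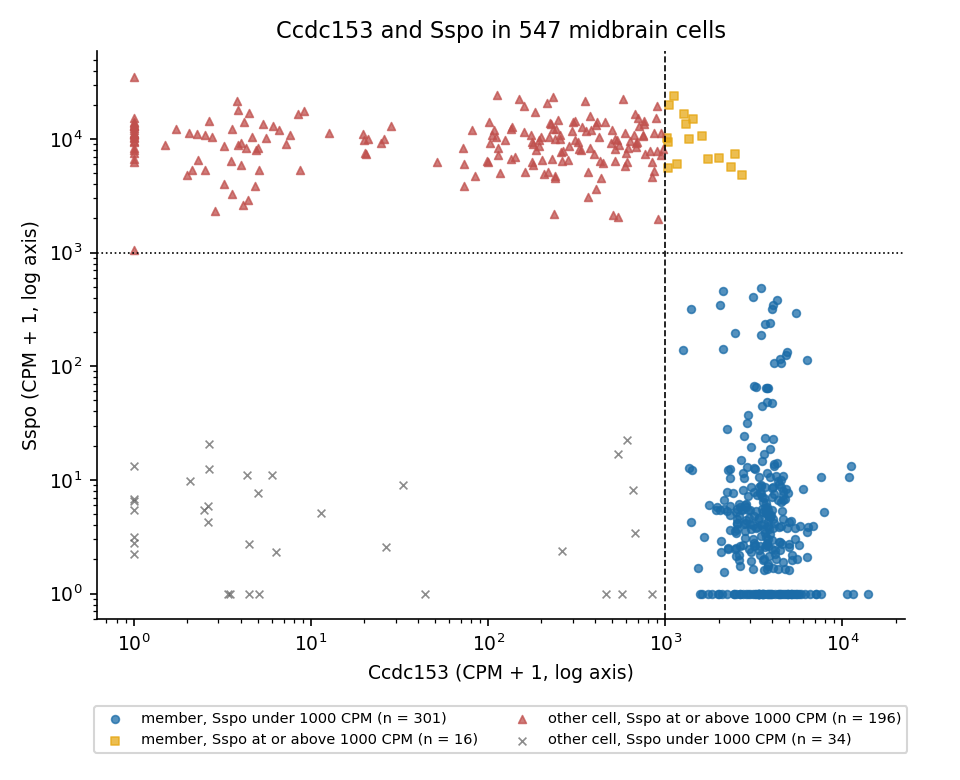
Ccdc153 (x axis) against Sspo (y axis), both in CPM plus 1 on log axes, for each of 547 midbrain cells; the dashed line is the Ccdc153 minimum of 1000 CPM and the dotted line the same level of Sspo. The 301 members with low Sspo lie apart from the 196 other cells with high Sspo, and the 16 members with high Sspo lie just right of the minimum.

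The threshold ran through the Sspo-high cells, and cells with low Sspo were few just below it. The 5 cells just inside it had Ccdc153 at 1022 to 1126 CPM and Sspo at 5504 to 23907 CPM. The 5 cells just outside had Ccdc153 at 901 to 971 CPM and Sspo at 1992 to 19484 CPM. From 100 to 500 CPM of Ccdc153 there were 79 cells, 77 of them Sspo-high, and from 500 to 1000 CPM 44 cells, 38 of them Sspo-high. From 1000 to 2000 CPM there were 27 cells, 12 of them Sspo-high, and from 2000 to 3000 CPM 78 cells, 4 of them Sspo-high. The 176 cells from 3000 to 5000 CPM and the 36 cells above all had low Sspo. Levels given for members include the 16 cells unless stated, and these raise genes of the Sspo-high cells. Without them Herpud1, of ER-associated degradation, stood at 126 in place of 198 CPM, the position factor Pax6 at 19.3 in place of 29.4, the transthyretin gene Ttr at 20.1 in place of 37.5, the claudin Cldn3 at 0.79 in place of 7.76 and the glutamate receptor Gria1 at 0.965 in place of 5.24 CPM.

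Depth was like in both classes. Members had a median of 691446 reads and 4866 detected genes per cell, the other cells 724006 reads and 5106 genes, and the sums rest on 255868139 and 184127674 reads. The 34 other cells with low Sspo had fewer, with medians of 606242 reads and 3745 genes, and the part of this in comparisons with them was not tested. Cells were numbered from 1 to 672, and the 7 blocks of 96 consecutive numbers were used to show the spread within the sample, on the assumption that numbers follow wells. Blocks held 37 to 51 members, 50 to 67.6% of their cells. Median genes per member ran from 3952 in block 6 to 5454 in block 7. Xist alone was found in 22.7% of members and 42.2% of other cells, and Y-linked reads alone in 30.6% and 28.3%, and neither in 45.7% and 29.6%. Blocks differed in this. Members with Y-linked reads alone and with Xist alone numbered 36 and 0 in block 3, 23 and 1 in block 4 and 15 and 1 in block 6. In blocks 1, 2, 5 and 7 Xist alone was the more frequent. Spread between blocks therefore cannot be told apart from the sex of the animals. Whether animals of either sex gave more cells to a class cannot be told from these shares, and the part of sex in the results was not tested. No 2 cells held identical counts. Intervals cover counting error only. Those on reads can be too narrow even for that, because several reads can come from the same molecule.

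Of the 5 marker genes given for these cells, 4 were higher in members and 1 was lower. Ccdc153, a coiled-coil gene used as an ependymal marker, lies at chr9:44240676-44247306 and chose the cells. Its level over all members was 3583 CPM (95% Poisson interval 3575 to 3590), with blocks from 3161 to 4609 and a median block of 3416. Single members ran from 1022 to 13942 CPM with a median of 3519. In the other cells it stood at 226 CPM. The blocks did not overlap, which the choice of cells fixes.

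Tmem212, a membrane protein gene at chr3:27866066-27896368, stood at 2893, 3313 and 4986 CPM in the lowest, median and highest member block. The other cells had 132 to 461 CPM per block, and the ratio of the sums was 13.9 (log2 3.80). Rarres2, which encodes the secreted chemoattractant chemerin, lies at chr6:48569696-48572789. Its member blocks ran from 1731 to 2867 CPM around 2245, and the other blocks from 10.3 to 156 CPM, a ratio of 35.9. The 196 Sspo-high other cells had Rarres2 at 17.4 CPM and the 34 with low Sspo at 411 CPM. Both genes were read in nearly all members, Tmem212 in 99.1% and Rarres2 in 97.8%.

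Ifitm1, an interferon-induced membrane protein gene at chr7:140967221-140969825, was read in fewer members. Its member blocks ran from 58.9 to 204 CPM around 105, against 1.25 to 18.9 CPM in the other cells. Of these, the 196 with high Sspo had 3.09 CPM and the 34 with low Sspo 32.6 CPM. A read was found in 48.9% of members, in 11.7% of the other midbrain cells, in 47.4% of spinal cord cells and in 2.14% of Nkx2-2 line cells (median depth 691446, 724006, 759184 and 1183362 reads). At 100 CPM or more it was in 98 of 317 members (30.9%), so it split the members rather than marking all of them.

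Otx2, a homeodomain factor of forebrain and midbrain at chr14:48657677-48673819, went the other way. It was lower in members, at 104, 132 and 150 CPM in the lowest, median and highest block against 254 to 509 CPM in the other cells, and the blocks did not overlap. Over all cells the levels were 127 and 308.5 CPM (log2 -1.28). The 196 Sspo-high other cells had 315 CPM and the 34 with low Sspo 258 CPM. By the median over single cells, members had 86.9 CPM and the Sspo-high other cells 255 CPM. The median of the 34 cells was 12.9 CPM, below the members, so for a typical cell Otx2 was lower in members only against the Sspo-high cells. At 10 CPM or more it was in 58.0% of members, and spinal cord cells stood at 11.3 CPM. In the spinal cord cells, which were not chosen on Ccdc153, that gene stood at 1986 CPM and Rarres2 at 576, both below the member level. The choice of members raises their Ccdc153 level, and 86.8% of spinal cord cells reached 1000 CPM of this gene.

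**Figure D2:**
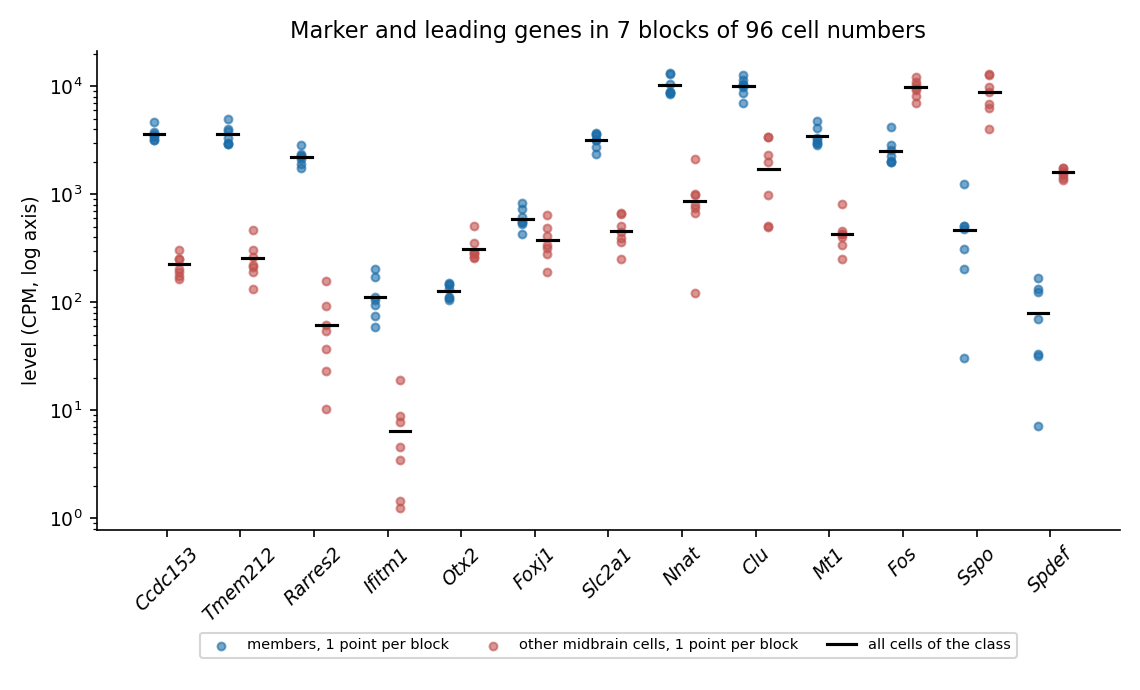
Level of 13 genes in CPM on a log axis, in members (blue) and other midbrain cells (red), with 1 point for each of 7 blocks of 96 cell numbers and a bar for the sum over all cells of the class. Ccdc153, Tmem212, Rarres2, Ifitm1, Slc2a1, Nnat, Clu and Mt1 were higher in every member block than in any other block, and Otx2, Fos, Sspo and Spdef lower.

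Markers of other cell types were low in the members, with exceptions. All 5 microglia markers summed to 8.18 CPM (0.185 to 17.7 over blocks, Cx3cr1 at 0) against 88.9 in the other cells, of which the 196 Sspo-high cells had 3.21 CPM and the 34 with low Sspo 770 CPM. The 7 neuron markers summed to 14.1 CPM (2.302 to 31.9, none at 0) and the 7 oligodendrocyte precursor markers to 1.65 CPM (0.0932 to 10.8, Neu4 at 0). The 10 astrocyte markers summed to 710 CPM (503 to 921, none at 0) against 1468, led by Agt at 263 CPM in members. The 1468 CPM split into 9118 in the 34 other cells with low Sspo and 506 in the 196 Sspo-high cells, which is below the members. The 8 oligodendrocyte markers summed to 782 CPM (627 to 924, none at 0) against 373, nearly all of it Cnp at 692 CPM. The 4 tanycyte markers summed to 64.9 CPM (14.5 to 104.5, none at 0), nearly all of it Scn7a, the single endothelial marker Kdr stood at 7.96 CPM (0 to 20.3), the 2 fibroblast markers summed to 13.9 CPM (2.35 to 42.6, none at 0) and the 5 markers of dividing or newborn cells to 1.05 CPM (0 to 3.60, none at 0). The 5 choroid plexus markers summed to 580 CPM (458 to 669, none at 0). Folr1, a folate receptor gene on the choroid plexus list, stood at 501 CPM, and Ttr, which defines that tissue, at 37.5 CPM against 708 in the other cells. Sspo was read in 80.1% of members at a median of 3.28 CPM, and in 9.65% of spinal cord cells. Its source in members with low Sspo was not tested, nor was the part of other cell types in the results.

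The members' RNA was spread over many genes. The 10 genes with most reads held 9.29% of the reads and the 1000 with most reads 55.5%, against 8.26% and 52.8% in the other cells. A read was found in every member for 69 genes, in at least 90% of members for 734 and in at least 50% for 3659. With each cell thinned to 100000 reads these became 53, 472 and 2768. Mitochondrially encoded genes took 5.45% of reads and motile cilium genes 2.23%, against 3.97% and 1.26% in the other cells.

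Per length, the 12 nuclear genes of highest level mixed lipid and metal handling with cilium proteins. In TPM (transcript levels per exon length of GENCODE vM21) these were Dbi at 20178, Nnat at 15816, Tmem212 at 14005, Mt3 at 10955, Clu at 8205, Mt1 at 7706, Dynlrb2 at 7204, Apoe at 6680, Fam183b at 6278, Tppp3 at 5161, Pcp4l1 at 5017 and Ccdc153 at 4945. Dbi encodes the acyl-CoA-binding protein, Apoe and Clu lipid-carrying secreted proteins and Tppp3 a microtubule-bundling protein. Nnat, the imprinted neuronatin gene, stood at 8445 to 13356 CPM in member blocks and 122 to 2122 CPM in the other blocks, 11.96-fold apart in the sums. The 34 other cells with low Sspo had Nnat at 4469 CPM and the 196 with high Sspo at 406 CPM. Clu was 5.85-fold higher in members (10035 against 1716 CPM), but its level was 12635 CPM in the 34 other cells with low Sspo and 341 CPM in the 196 with high Sspo. Tppp3 (3394 and 3338 CPM) and Pcp4l1 (2815 and 3251 CPM) were alike in both classes. Apoe stood at 5082 and 3689 CPM with overlapping blocks, and the 3689 CPM split into 31687 CPM in the 34 other cells with low Sspo and 166 CPM in the 196 with high Sspo.

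Of 8693 genes with at least 10 CPM and a read in at least 20% of cells of either class, 440 (5.06%) were at least 4-fold higher in members and 492 (5.66%) at least 4-fold lower. With the further condition that the blocks of the classes did not overlap, these were 360 (4.14%) and 356 (4.1%). All genes at 10 CPM had a median log2 ratio of -0.17 (10843 genes), so ratios near that value are no difference of a gene from the rest. Setting the median over the genes compared to 0 gave 497 higher and 429 lower genes, or 53.7% higher in place of 47.2%. Without the 16 Sspo-high members the counts were 469 and 559. Against the 34 other cells with low Sspo alone, 916 genes were higher and 466 lower, and 257 of the 440 and 104 of the 492 genes were among them.

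Among genes with at least 50 CPM and a read in at least 50% of members, the 12 with the largest ratios included cilium, transport and cell surface genes. Car9, a membrane carbonic anhydrase, stood at 167, 256 and 282 CPM in the lowest, median and highest member block, and at 0.098 CPM (18 reads) over all other cells. At 10 CPM or more it was in 205 of 317 members (64.7%) and in 0 of 230 other cells (which allows a share of up to 1.30%, 3 cells of 230). Sntn, the sentan gene of the ciliary tip, stood at 361 to 689 CPM against 1.55 CPM. Dnah3, a dynein heavy chain, stood at 193 CPM against 1.35, and Ccdc33 at 375 CPM against 2.79.

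The other 8 genes of this rule had like patterns. Spata18, a mitochondrial quality control gene, had a log2 ratio of 8.88, the sodium-calcium exchanger Slc24a4 8.10, the complement regulator Cd55 7.22 and Fam107b 7.20. Dnajc6, the clathrin-uncoating auxilin, stood at 6.41, the zinc transporter Slc39a4 at 6.31, the matrix gene Vit at 6.22 and the vesicle motor Myo5b at 6.18. All 12 genes were apart in every block and at most 22.0 CPM in the 34 other cells with low Sspo (Ccdc33). Each had a read in 51.4 to 90.2% of members, so none marked every member. The size of these ratios depends on the settings: with a Ccdc153 minimum of 2000 CPM the 12 log2 ratios ran from 3.85 (Slc24a4) to 5.66 (Sntn), with Car9 at 5.03 and Spata18 at 3.91, and with the deposited log2 values from 3.42 (Fam107b) to 7.18 (Ccdc33).

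The 12 genes with the smallest ratios, with at least 50 CPM and a read in at least 50% of the other cells, were mostly low in the members with low Sspo. Spp2, a secreted phosphoprotein gene, stood at 137 CPM in members and 3378 in the other cells, and 6 members held 50% of the members' reads. The receptor gene Npsr1 stood at 23.6 and 608 CPM, the claudin Cldn3 at 7.76 and 250 CPM, the nucleoside and monoamine transporter Slc29a4 at 5.38 and 204 CPM, and the glutamate receptor Gria1 at 5.24 and 196 CPM. Without the 16 Sspo-high members the log2 ratios became much lower. That of Spp2 went from -4.62 to -9.27, that of Npsr1 from -4.69 to -10.54 and that of Slc29a4 from -5.24 to -10.75. Against the 34 other cells with low Sspo, 5 of the 12 genes were higher in the members instead, with log2 ratios of 6.92 for Npsr1, 5.32 for Cldn3, 4.52 for Spp2, 4.36 for the myosin Myh2 and 0.49 for Slc29a4. The remaining 7, Prkcb, Sntb1, Slc7a10, Pygm, Thrsp, Sept11 and Gria1, were lower in members against these cells too. With a Ccdc153 minimum of 500 CPM the 12 log2 ratios ran from -3.44 (Gria1) to -2.52 (Slc29a4).

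Genes of the motile axoneme were higher in members as a group. Of 63 such genes at 10 CPM, 23 were at least 2-fold higher and 1 at least 2-fold lower, where 13.8% and 18.3% of all genes at 10 CPM were. The median log2 ratio was 0.84, from 0.73 to 0.88 over the 7 blocks, beside -0.17 for all genes. The same list had a median of 0.87 without the 16 Sspo-high members and of 1.88 against the 34 other cells with low Sspo. The single gene lower by that measure was Tekt2, a tektin of the outer doublets, at 55.5 against 128 CPM with overlapping blocks.

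Dyneins led this group. Axonemal dyneins had a median of 1.19 over 20 genes, 11 of them at least 2-fold higher, where 13.8% of all genes were. Only 1 of the 20 was at least 4-fold higher with at least 10 CPM and a read in 20% of members, where 5.06% of the genes compared were. Dnah14 was at 11.7 CPM, near the minimum of 10 CPM, and at 0 reads in the other cells. With a floor of 3 reads over all other cells it was at least 720-fold higher. Dnali1, a dynein light intermediate chain, stood at 1250 against 318 CPM, and Dnah6, a heavy chain, at 660 against 287 CPM. Dynlrb2 blocks ran from 1150 to 1851 CPM in members and from 492 to 807 CPM in the others. The dynein light chain Dnal4 stood at 346 and 307 CPM, with overlapping blocks. Dnah7a and Dnah7b are near copies and may share reads.

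Radial spokes, the central pair and assembly factors differed less. Rsph9, a spoke head protein, stood at 574 to 1063 CPM against 154 to 267 CPM, and Rsph1, the spoke gene with the highest CPM, at 2137 against 1280 CPM. Hydin of the central pair stood at 424 against 197 CPM. The assembly factors had a median of 0.74 over 14 genes, with Dnaaf1 at 202 against 76.1 CPM and Dnaaf2 at 41.3 against 40.9. Intraflagellar transport and BBSome genes, which carry cargo along the cilium, had a median of 0.34, and 35 of 38 were within 2-fold. Ift46 stood at 351 against 154 CPM and Tulp3 at 34.2 against 48.7 CPM.

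Regulators of multiciliated cells were split. Foxj1 stood at 590 CPM in members and 378 in the other cells, with overlapping blocks. Myb, a factor of the early multiciliogenesis programme, stood at 159 against 13.04 CPM, though block 6 had only 43.7. Deup1, of the deuterosome on which centrioles multiply, stood at 77.1 against 11.6 CPM, and Trp73 at 98.8 against 28.0 CPM. Rfx2 (237 and 150 CPM) and Rfx3 (127 and 132 CPM) were within 2-fold. The polarity genes Vangl1 (106 against 7.99 CPM), Fzd3 (114 against 23.6) and Fzd6 (37.4 against 5.96) were at least 4-fold higher, and Vangl2 was lower at 15.5 against 42.0 CPM. Over the 15 planar polarity genes the median was 0.38, from 0.04 to 1.13 over blocks.

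**Figure D3:**
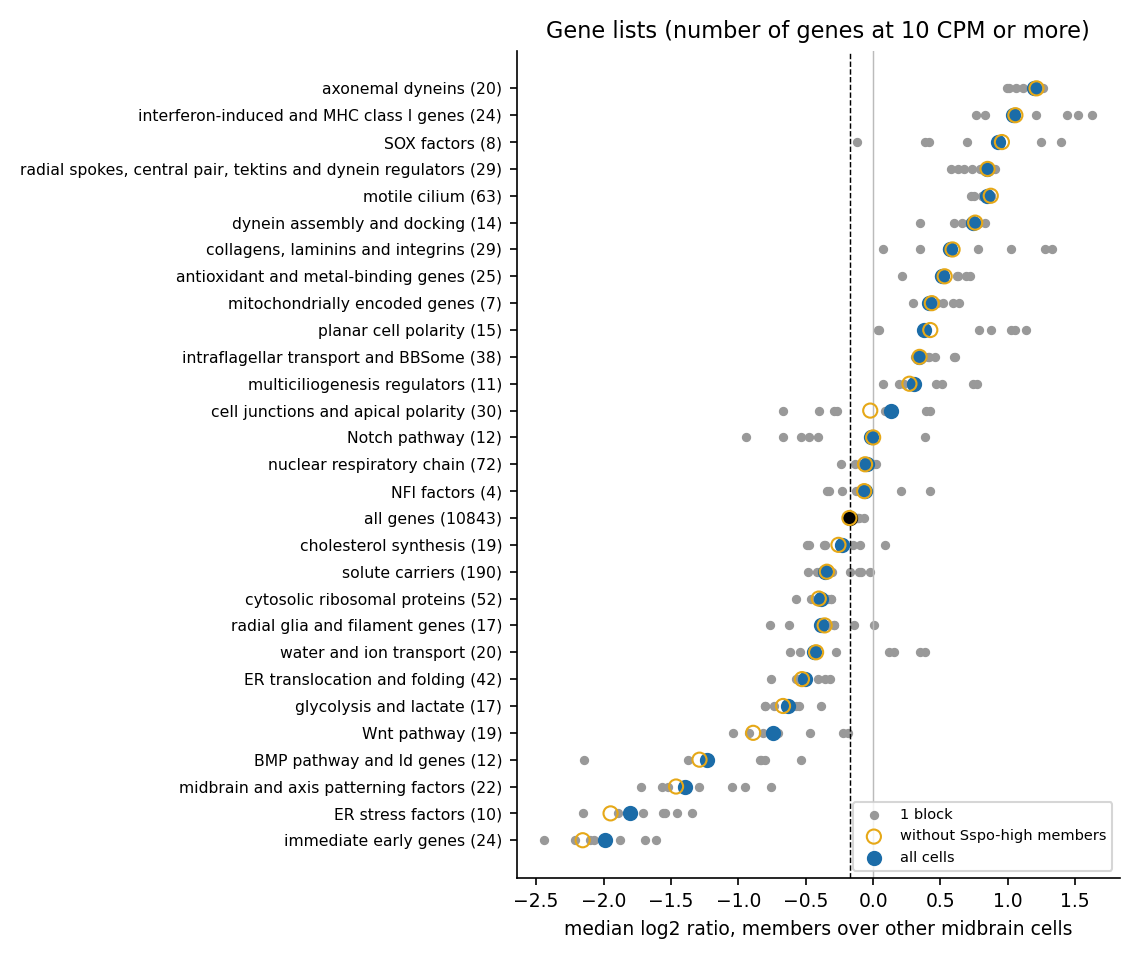
Median log2 ratio of members over other midbrain cells for each gene list (rows, with the number of genes at 10 CPM or more), for all cells (filled), each of 7 blocks (grey) and without the 16 Sspo-high members (open); the dashed line is the median of all genes. Axonemal dyneins lie at 1.19 and immediate early genes at -1.99, and the median of all genes lies at -0.17.

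Epithelial junction genes had a median of 0.13 over 30 genes (-0.02 without the 16 Sspo-high members). Of these, 7 were at least 2-fold higher and 8 lower, where 13.8% and 18.3% of all genes were. Gja1, connexin 43, stood at 713 against 170 CPM, but its member blocks ran from 200 in block 6 to 1056, overlapping the others, and the 34 other cells with low Sspo had 1497 CPM. The claudins Cldn3 and Cldn1 (4.88 against 58.3 CPM) were lower. Cdh1, E-cadherin, had 0 reads in members and 13.6 CPM in the other cells, at least 1162-fold lower with the floor of 3 reads over all members. Of the water and ion transport genes (median -0.44 over 20), the potassium channel Kcnj10 stood at 390 against 54.7 CPM and the water channel Aqp4 at 428 against 131 CPM, with 1084 CPM of Aqp4 in the 34 other cells with low Sspo. The bicarbonate transporter Slc4a4 was lower at 43.7 against 167 CPM.

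The glucose transporter Slc2a1 stood out among metabolic genes. It stood at 2353, 3143 and 3699 CPM in the lowest, median and highest member block and at 251 to 665 CPM in the others, 6.98-fold apart, and was read in 99.4% of members. The glycolysis and lactate list as a whole had a median of -0.63 over 17 genes. Pfkp, a phosphofructokinase, was higher (98.9 against 12.4 CPM), and Hk2 (4.34 against 33.3), Aldoc (56.2 against 250) and the lactate dehydrogenase Ldha (112 against 428) were lower. Nuclear genes of the respiratory chain had a median of -0.05 and 72 of 72 were within 2-fold. The 7 mitochondrially encoded genes had a median of 0.42, all within 2-fold.

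Metal-binding and antioxidant genes were higher, with a median of 0.51 over 25 genes. Of these, 9 were at least 2-fold higher and 0 lower, where 13.8% and 18.3% of all genes were. The metallothioneins Mt1 (3417 against 424 CPM), Mt2 (885 against 97.3) and Mt3 (4156 against 1179) led, with the copper carrier Cp at 65.0 against 5.79 CPM. Mt1 and Mt2 are near copies and may share reads. Of 190 solute carriers 45 were at least 2-fold higher and 58 lower (median -0.36), where 13.8% and 18.3% of all genes were, with the amino acid transporter Slc6a19 at 90.6 against 0.092 CPM, in 44.2% of members. Of 29 collagen, laminin and integrin genes 10 were at least 2-fold higher and 7 lower (median 0.57), beside the same shares of all genes. Col8a2, among the higher, stood at 198 against 16.9 CPM.

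Of 42 genes of ER translocation and folding, 11 were at least 2-fold lower and 0 higher, where 18.3% and 13.8% of all genes were, and the median was -0.50. Herpud1, of ER-associated degradation, stood at 198 against 1712 CPM, and Hspa5, the chaperone BiP, at 1367 against 2794 CPM with overlapping blocks. Of the stress factors (median -1.80 over 10), Xbp1 stood at 104 against 444 CPM and Ddit3 at 28.5 against 250 CPM. Against the 34 other cells with low Sspo the folding list had a median of 0.34, the opposite sign.

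Interferon-induced and MHC class I genes were higher, led by few genes. Of 24 genes at 10 CPM, 13 were at least 2-fold higher and 2 lower, where 13.8% and 18.3% of all genes were. The median was 1.04, from 0.76 to 1.63 over blocks. Ifitm3, which blocks viral entry, stood at 495 to 967 CPM in member blocks and 0.246 to 78.8 CPM in the others, 18.4-fold apart. The guanylate-binding proteins Gbp2 (79.6 against 6.403 CPM) and Gbp3 (25.7 against 1.55) followed, and H2-D1 stood at 203 against 97.0 CPM. B2m, the light chain of MHC class I, was lower at 77.2 against 122 CPM. Against the 34 other cells with low Sspo the median was -0.05. The Ifitm and H2 genes have near copies and may share reads.

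Position factors set the members apart from the Sspo-high cells. Of 22 genes at 10 CPM, 13 were at least 2-fold lower and 4 higher, where 18.3% and 13.8% of all genes were. The median was -1.40, from -1.72 to -0.75 over blocks. Against the 34 other cells with low Sspo the median was -0.47, and with a Ccdc153 minimum of 500 CPM it was -0.92. Msx1, a dorsal midline factor, stood at 214 to 372 CPM in member blocks against 726 to 1036, Pax6 at 29.4 against 289 CPM and Zic4 at 66.2 against 438 CPM. Higher in members were Nkx6-1, a ventral neural tube factor (47.0 against 0.016 CPM), the midbrain-hindbrain gene Cnpy1 (49.2 against 5.49), Meis2 (28.9 against 0.375) and Ntn1, netrin 1 (23.4 against 3.13). The count depends on the level asked for: with genes from 1 CPM the median was -0.33, and with genes from 50 CPM it was -1.80.

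Members differed among themselves in these factors. Among the 301 members with low Sspo, 63 had Nkx6-1 at 10 CPM or more and 66 had Zic4. No cell had both: Zic4 was found in 0 of 63 cells with Nkx6-1 and in 66 of 238 cells without it (27.7%). By a rule of 3 cells, which is not an exact interval, 0 of 63 allows a share of up to 4.76%. Other pairs were not exclusive. Msx1, also a dorsal factor, was found in 42 of the 63 cells with Nkx6-1 (66.7%) and in 84.9% of those without. Ntn1 was found in 13 of the 63 (20.6%) and in 11.3% of those without. Otx2 was found in 28 of the 63 cells with Nkx6-1 (44.4%) and in 60.5% of those without. Zic4 was found in 25.6% of cells with Otx2 and in 17.1% of those without. Ifitm1 was found in the same share of cells with and without Otx2, 44.2% of each.

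Both families that the series deals with, SOX and NFI, were present in the members. Sox9 was read in all members and stood at 1077 to 1552 CPM per block against 1047 to 1738 (1247 and 1417 CPM over all). Sox1 was higher at 25.6 against 1.504 CPM, and Sox2 stood at 48.1 against 28.6. Nfia stood at 253 and 219 CPM, Nfib at 97.9 and 124 and Nfic at 100.2 and 71.6. Nfix was lower, at 135 against 408 CPM, with member blocks of 98.9 to 204 and other blocks of 283 to 547 that did not overlap.

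Signalling and filament genes went both ways. Hey1, a Notch target, stood at 145 against 3.68 CPM in 54.9% of members, and Hes1, another, at 85.0 against 673 CPM. Of the BMP list the targets Id1 (49.0 against 1003 CPM), Id2 (77.7 against 409) and Id3 (35.8 against 577) were lower, with 4 members holding 50% of the Id1 reads. The Wnt list leaned lower, with a median of -0.74 over 19 genes. Of these, 5 were at least 2-fold higher and 8 lower, where 13.8% and 18.3% of all genes were. Wnt4 (44.8 against 2.24 CPM), Sfrp1 (33.9 against 2.72) and Wnt5a (46.4 against 10.7) were among the higher genes. The keratins Krt8 (92.9 against 1.69 CPM) and Krt15 (96.0 against 5.51) and S100b (903 against 95.6) were higher, and Prom1 (37.3 against 404 CPM) was lower. Vim stood at 1157 and 1937 CPM. The cholesterol synthesis list had a median of -0.23. Cytosolic ribosomal protein genes, many with near copies, had a median of -0.39, with blocks from -0.57 to -0.31 where the block medians of all genes ran from -0.15 to -0.07, and 48 of 52 were within 2-fold.

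Immediate early genes, which respond quickly to stimuli and are known to be induced by tissue dissociation, were lower in members and uneven among them. Of 24 genes 17 were at least 2-fold lower and 1 higher (Ier3), where 18.3% and 13.8% of all genes were. The median was -1.99. Together the genes of this list took 0.702% of member reads and 3.29% of the other cells' reads. Fos stood at 1968, 2238 and 4176 CPM in the lowest, median and highest member block and at 6912 to 12023 CPM in the others. Atf3 stood at 300 against 4008 CPM and Nr4a1 at 79.5 against 1163 CPM. The 34 other cells with low Sspo had Fos at 374 CPM, below the members. The part of cell handling in these levels was not tested.

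Between members, Fos was among the most uneven genes. Its lower quartile was 3.55 CPM, its median 115, its upper quartile 3459 and its highest value 40165 CPM, and 26 of 317 cells held 50% of its reads. At 1000 CPM or more it was in 113 members (35.6%, from 25.5 to 42.2% over blocks) and in 79.6% of the other cells. Over the 301 members with low Sspo its log2 level went with those of Egr1 (r = 0.88), Junb (0.80) and Dusp1 (0.75), within blocks as well (0.88, 0.81 and 0.75). These r are across cells of 1 sample that differ in depth and are given as a description.

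**Figure D4:**
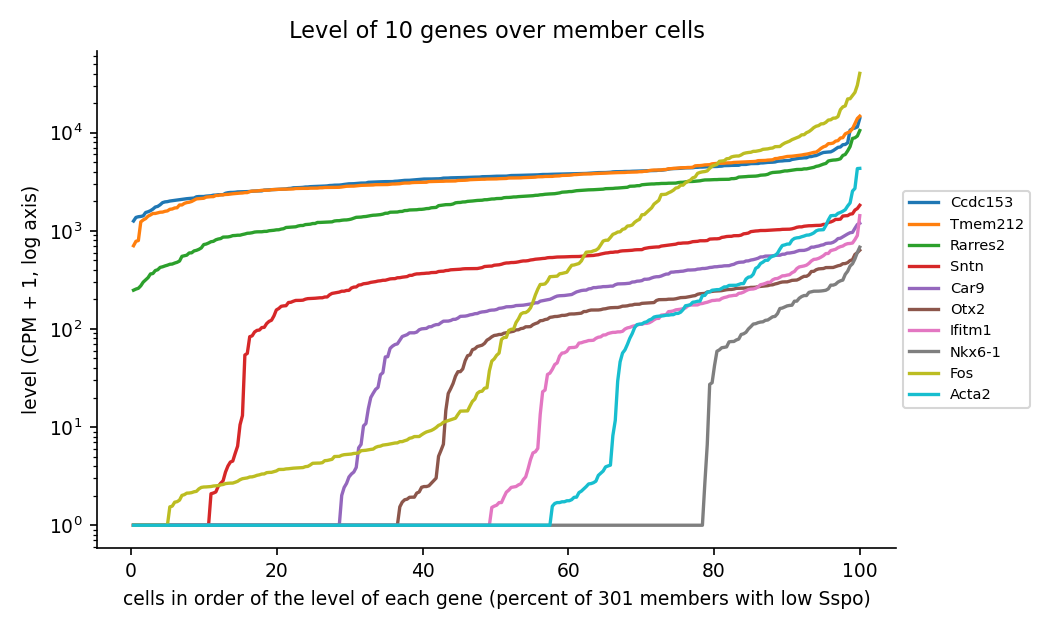
Level of 10 genes (CPM plus 1, log axis) over the 301 members with low Sspo, each curve with cells in order of that gene's own level. Ccdc153, Tmem212 and Rarres2 lie above 100 CPM in every cell, Sntn, Car9, Otx2, Ifitm1, Acta2 and Nkx6-1 are at 0 in some cells and rise steeply at a different share of cells for each, and Fos runs from 0 to 40165 CPM.

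Spread between members was measured as the squared coefficient of variation (variance over squared mean, over cells) against genes of like mean level. Of 7245 genes with a mean of 20 CPM and a read in at least 10% of members, 45 (0.621%) were at least 4 times above it. Gfap led at 46.6 times, and a single cell held 55.9% of its reads, so this value rests on 1 cell. The genes of the Sspo-high cells followed, with Sspo at 44.8 times, Spp2 at 18.6, Id1 at 15.3, Wfdc2 at 13.3, Spdef at 10.6 and Rbp4 at 10.0. Sspo stood at 1.28 times without the 16 Sspo-high members, and the number of genes at 4 times or more went from 45 to 25.

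Without the 16 cells Fos stood at 14.3 times the spread of genes of like level, Junb at 14.3, Dusp1 at 12.2, Egr1 at 11.1, Atf3 at 11, Btg2 at 10.5 and the heat shock gene Dnajb1 at 10.0. Ccn1, a matricellular gene, stood at 21.3 times.

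Other uneven genes were high in few members. Pdyn, the prodynorphin gene of opioid peptides, was at 10 CPM or more in 29 of 301 members with low Sspo (9.63%), from 0 to 20.4% over blocks, and reached 3999 CPM. Acta2, smooth muscle actin, was at 10 CPM or more in 102 of these cells (33.9%), in every block (25.5 to 45.9%), and in 2 of 230 other cells. Its companions on the mural list were low, since the 4 mural markers summed to 229 CPM in members (127 to 423 over blocks, none at 0) and Acta2 alone gave 202 CPM. Cd36, a fatty acid receptor gene, was read in 18.6% of the 301 cells and stood at 5.61 times, and Gsn, the actin-severing gelsolin, stood at 4.94 times with a median of 326 CPM and a highest value of 5766 CPM.

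The given markers varied to different degrees. Tmem212 stood at 0.961 times the spread of genes of like level, Otx2 at 0.817, Rarres2 at 1.57 and Ifitm1 at 1.74. Ccdc153 stood at 0.617 times, but the choice of cells removed its low values. Rsph1 stood at 0.451 times, with 87 cells sharing 50% of the Rsph1 reads. Among members with low Sspo all 301 had Tmem212 and Rarres2 at 100 CPM or more, and 298 had Tmem212 at 1000 CPM or more. The smallest values came from genes with near-identical copies, from Prdx6b at 0.039 times to Rps7 at 0.096, whose reads may be shared between loci.

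**Figure D5:**
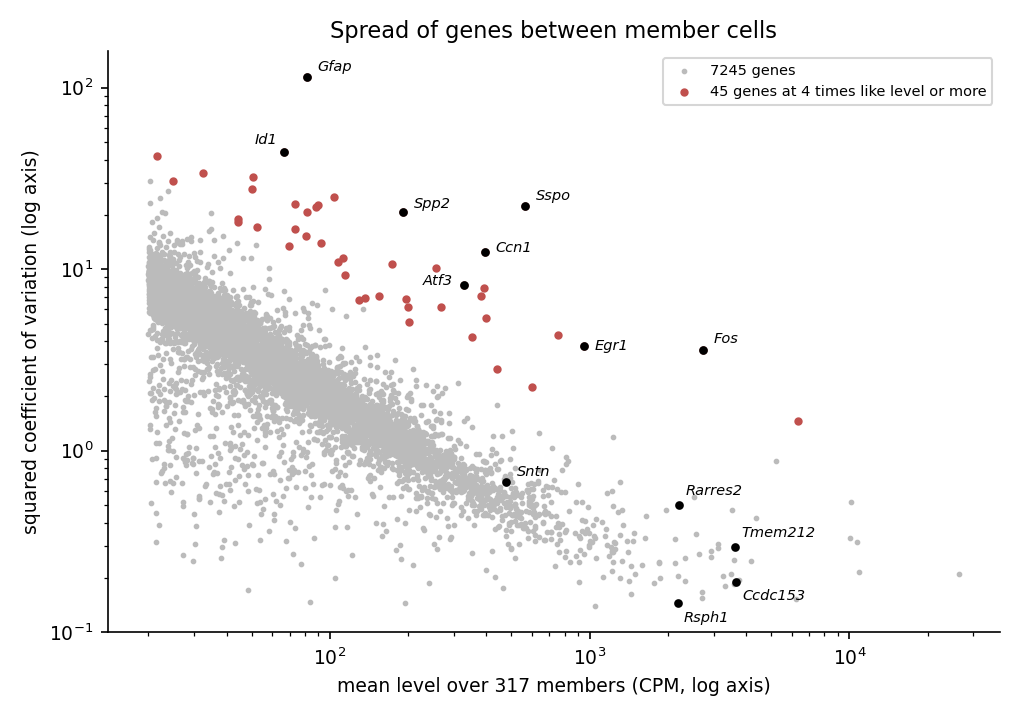
Squared coefficient of variation over members (y axis) against mean level in CPM (x axis), both log axes, for each of 7245 genes; red points are the 45 genes at 4 times or more the value of genes of like level, and black points are named genes. Gfap, Sspo, Spp2, Id1, Ccn1, Atf3, Egr1 and Fos lie above the cloud, and Ccdc153, Tmem212 and Rsph1 at its lower right.

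The first 3 principal components of the members went with the number of detected genes, the Sspo-high cells and blocks. The first took 5.15% of the variance over 2000 genes, went with the number of detected genes (r = 0.91) more than with log10 reads (r = 0.35), and differed between blocks (37.5% of its score variance), with block 6 lowest. The second took 1.70%, and 15 of the 16 highest cells were Sspo-high members. Fos, Egr1, Ier2, Btg2, Dusp1 and Junb lay at its high end and Sntn, Got1l1, Cdhr4.1, Car9, Ccdc78 and Dnah3 at its low end. The third took 1.32%, and block 6 stood apart on it with a mean score of 21.1 where the next block had 2.71. Pla2g7 and Krt18 lay at its high end and Clcn4 and Gpld1 at its low end. Block 6 also had the fewest detected genes per member, and 15 members with Y-linked reads alone against 1 with Xist alone. What set block 6 apart was not tested.

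Pairs of genes within the 301 members with low Sspo were related to different degrees. Sntn went with Cdhr4.1 (r = 0.79, and 0.79 within blocks), a cadherin-related gene, and less with Car9 (0.34) and Got1l1 (0.43). Sntn and Fos had r = -0.14. Ccdc153 and Tmem212 had r = 0.47 (0.38 within blocks), and Ifitm1 and Otx2 r = -0.01. These are descriptions over cells of 1 sample that share libraries' depth differences.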

How the data were processed

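Cells were sequenced with Smart-seq2, per the labels' protocols. STAR 2.3.1o, Seurat 3 and the mm10 build are named in the submitters' processing notes. The tool and annotation used for counting are not given in the sources used here. The deposited table holds raw read counts per gene and cell, which the authors did not normalize. A second deposited table holds log2 values, and 100% of them equal log2(count / size factor + 1) within 0.01.

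From the counts, CPM were computed per cell and over the summed counts of a class, with exact Poisson intervals for sums and Clopper-Pearson intervals for shares, both at 95%. Each group is 1 sample, so no test between groups was possible and no p-value is given. Of 16347 genes, 16028 matched GENCODE vM21 (coordinates and exon lengths on GRCm38), 47 matched RefSeq only and 272 neither. Counting is not stated to use strand, so overlapping and antisense genes cannot be told apart. No doublet caller was run. Sspo at or above 1000 CPM set off the Sspo-high cells. Columns of cells that could not be tied to 1 sample, 485 in all, were not used.

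Genes were named by rule: the 5 markers, the 12 nuclear genes of highest TPM, the 12 largest and the 12 smallest ratios, the highest, largest and smallest of each list, the 15 most and 8 least variable genes, and 6 genes at each end of 3 components. Other list members, and Pdyn, Acta2, Cd36 and Gsn, were chosen after their values were seen. The members and lists were chosen with earlier results of these data known. Alternatives covered the Ccdc153 minimum, scaling, level, depth, sequencing project and left-out blocks. The comparisons without Sspo-high members, with the 34 other cells of low Sspo, and by blocks of mostly Xist or Y-linked reads were added after seeing the data. Computation used Python 3.11.15, numpy 2.4.6, pandas 2.3.3, scipy 1.17.1 and matplotlib 3.10.9, and was checked on simulated data.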

Additional observations from a re-analysis of the deposited data

How the results depend on the processing

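The limits are a single sample, cells of several animals that cannot be told apart, and a comparison class made mostly of Sspo-high cells. No paired analysis was possible because the comparison lies within 1 sample and comes from no test. With each block left out in turn there were 439 to 470 higher and 471 to 509 lower genes, 43 to 49 uneven genes, and medians of 0.83 to 0.89 for the motile cilium, -0.54 to -0.48 for ER folding, 1.01 to 1.08 for interferon-induced genes and -1.49 to -1.33 for position factors.

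With a Ccdc153 minimum of 500 CPM, 66.0% of cells were members, 311 genes were lower and the position factors had a median of -0.92. With 2000 CPM, 53.0% were members and the motile cilium median was 0.79. Setting the median ratio to 0 gave 0.996 for the motile cilium and -0.35 for ER folding. The deposited log2 values gave 1.52 for the motile cilium, -0.69 for ER folding and 0.66 for interferon-induced genes, with 534 higher and 385 lower genes (58.1% higher), of which 60.7% and 47.4% of the main calls were among them. With genes from 50 CPM, 283 were lower and the position factors stood at -1.80, and with genes from 1 CPM they stood at -0.33. The second sequencing project alone gave 0.79 for the motile cilium and 1.45 for interferon-induced genes. Other cells with high Sspo alone gave 0.76 for the motile cilium, and the 4 blocks of mostly Xist reads 0.77. Without the 16 Sspo-high members 25 genes were uneven. The cause of these shifts was not tested.

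Against the 34 other cells with low Sspo, 916 genes were higher, and medians were 1.88 for the motile cilium, 0.34 for ER folding, -0.054 for interferon-induced genes and -0.47 for position factors. The ratios of Slc29a4 (0.49), Myh2 (4.36), Cldn3 (5.32), Npsr1 (6.92) and Spp2 (4.52) changed sign there. Of 552 log2 ratios of the 24 genes of largest and smallest ratio under the alternatives, 424 moved by less than 1. Part of this count was fixed in advance. The levels of 1 and 50 CPM do not enter these ratios, and setting the median to 0 shifts all of them alike. Runs with 1 block left out share most cells with the main run, so the count does not measure how stable the ratios are.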
